A study of Mus musculus with 17 samples.

Results

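The expression of 9 adrenergic genes was followed in brown fat of mice kept warm or cold. They are 5 adrenoceptors (Adrb1, Adrb3, Adra1a, Adra1b and Adra2a) and 4 adenylyl cyclases (Adcy3, Adcy4, Adcy6 and Adcy9). They were taken by gene symbol from a table of read counts, in which all 9 members were found among 21982 genes. Of the 9 members, 7 had enough reads for a test, and Adra1b and Adra2a did not. In wild types, 4 h at 6 °C went with higher Adcy3 and Adcy4 and lower Adrb1, Adra1a and Adcy9 than 4 h at 22 °C. In knockouts the same contrast gave higher Adcy3 and Adcy4 and lower Adrb1 and Adcy9. Adrb3 and Adcy6, both among the 3 members with the highest level per length, did not pass the test in either genotype.

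Brown fat burns fuel to make heat when sympathetic nerves release noradrenaline onto it. Beta adrenoceptors (the Adrb genes) couple through the stimulatory G protein to adenylyl cyclases, the membrane enzymes that make cyclic AMP. Cyclic AMP then activates protein kinase A, which drives lipolysis and the transcription of thermogenic genes such as Ucp1. Alpha-1 adrenoceptors (Adra1a, Adra1b) couple through Gq to phospholipase C and calcium, and alpha-2 adrenoceptors (Adra2a) couple through Gi, which lowers cyclic AMP.

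The libraries were mRNA sequencing of brown adipose tissue, 1 library per mouse, from 17 C57BL/6 mice that were wild type or germline homozygous knockouts of Noct (Nocturnin) born as littermates. There were 4 wild types (3 female, 1 male) and 4 knockouts (1 female, 3 male) at 22 °C. The other 5 wild types (4 female, 1 male) and 4 knockouts (1 female, 3 male) were put at 6 °C. All mice were housed singly and without food for the 4 h, so no group is a fed control. Males made up 2 of 9 wild types and 6 of 8 knockouts, and the labels give ages from 11.14 to 23.57 without a unit.

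Library totals ran from 18410748 to 47598200 counts, and mitochondrially encoded genes took 43.4 to 57.3% of them. Levels of one gene between libraries are given below as CPM, counts relative to library size after TMM scaling (edgeR's correction for differing library composition). Noct itself, which encodes the targeted NADPH phosphatase, was at 91.5 to 176 CPM in wild types at 22 °C and at 238 to 457 CPM at 6 °C. It was at 3.37 to 34.2 CPM in knockouts at 22 °C and at 18.2 to 27.2 CPM at 6 °C, so every library matched its labelled genotype. Of the brown adipocyte markers, Ucp1 averaged 4514 CPM in wild types and 4716 CPM in knockouts at 22 °C, and all 10 markers of that list were detected. In the cold 2 of these 10 rose and 2 fell in wild types, and 2 rose and 0 fell in knockouts. Of all genes 14.3% rose and 13.3% fell in wild types, and 11.6% and 10% in knockouts. The log2 rise of Ucp1 was 0.63 in wild types (edgeR, adjusted p = 0.00303) and 0.54 in knockouts (adjusted p = 0.0119). A pair of libraries stood apart. Replicate 2 of the wild types at 22 °C, the male of that group, had 493 CPM of Ppargc1a, a cold-induced coactivator, against 92.4 to 116 CPM in the other 3 libraries. Replicate 4 of the knockouts at 22 °C had the highest mitochondrial share (57.3%) and the lowest CPM of its group for all 7 tested members. Replicate 3 of the knockouts at 6 °C had a share of 57.0%. In its group it was lowest only for Adrb3 and Adcy4 among those members. A link with this share was not tested.

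Per length, Adcy3 and Adrb3 led the 18 adrenoceptor and cyclase genes analysed here. RPKM (reads scaled to gene length and to all counted reads, as deposited) averaged 40.5 ± 15.2 (SD, n = 17) for Adcy3, 29.2 ± 9.498 for Adrb3 and 21.0 ± 4.31 for Adcy6. Adra1a followed at 9.65 ± 1.91 RPKM. Adrb1 (3.31 ± 1.48 RPKM), Adcy4 (3.13 ± 0.952 RPKM) and Adcy9 (3.02 ± 1.53 RPKM) lay close together. The deposited RPKM imply lengths of 2491 bases for Adrb1 and 3500 for Adcy4, against 3382 and 4672 exon bases in GENCODE vM21. For Adcy9 both are 5197 bases. The order of these genes and the family shares below therefore rest on the deposited lengths. Neighbours in this order mostly overlapped. Adcy3 was above Adrb3 in 11 of 17 libraries, Adrb3 above Adcy6 in 15, Adrb1 above Adcy4 in 8 and Adcy4 above Adcy9 in 10. Adra1a was above Adrb1 in 17 of 17 libraries with ranges that did not overlap, and Adcy6 was above Adra1a in 17 of 17 libraries. Adcy10, the soluble cyclase, averaged 1.36 RPKM. Adra2a and Adra1b were near the bottom. Adra2a had 28 counts over all 17 libraries (95% exact Poisson interval 18.6 to 40.5), with none in 5 libraries and at most 6 in one. Adra1b had 15 counts (8.40 to 24.7), with none in 9 libraries and at most 4 in one. These intervals cover counting error only. In summed counts per group, Adra1b had 4, 5, 1 and 5 and Adra2a 10, 7, 4 and 7 in wild types at 22 °C and 6 °C and knockouts at 22 °C and 6 °C, so no difference was detectable at this depth.

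**Figure D1:**
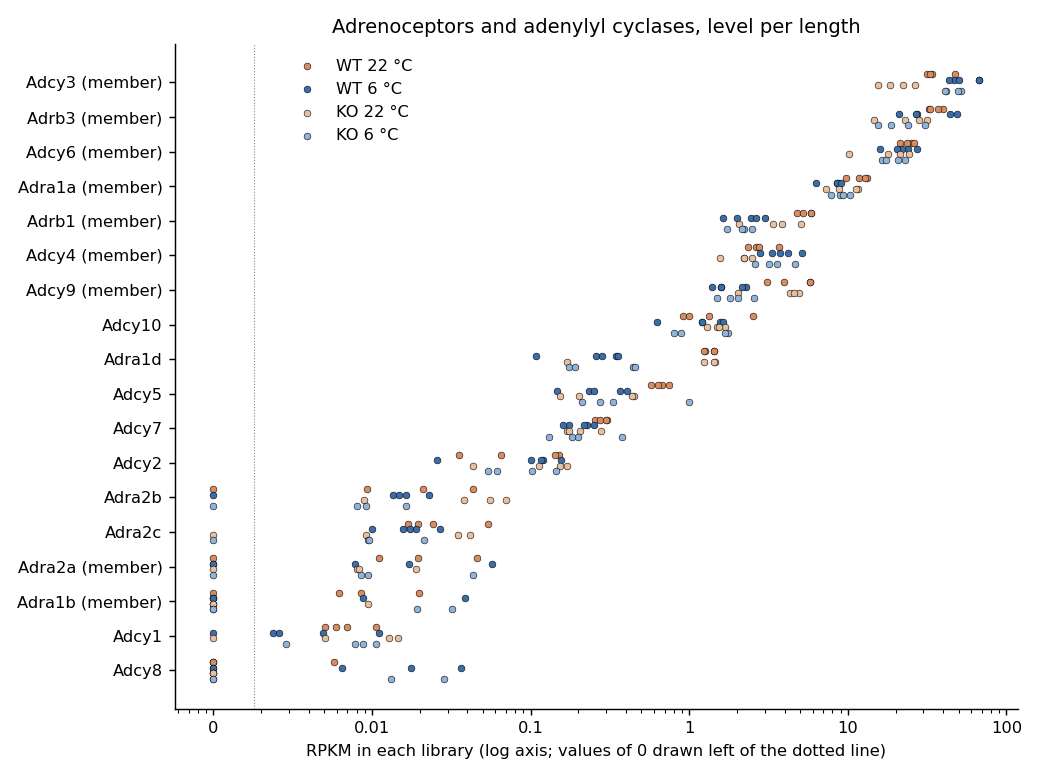
RPKM of each of 18 adrenoceptor and adenylyl cyclase genes (vertical axis, members marked) in each of the 17 libraries (points, coloured by group) on a log axis. Adcy3, Adrb3 and Adcy6 lie highest, and Adra1b and Adra2a lie near or at 0.

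Among the receptors, the beta-1 gene fell in the cold and the beta-3 gene did not pass the test. Adrb1, a beta receptor also known from heart and fat cell precursors, was at 12.7, 10.9, 11.7 and 12.9 CPM in wild types at 22 °C and at 6.35, 7.81, 4.58, 4.94 and 6.19 CPM at 6 °C. All cold wild types lay below all warm ones. The fitted log2 difference was -1.01 ± 0.19 (SE; edgeR quasi-likelihood, adjusted p = 0.00117), or 0.496-fold. In knockouts, Adrb1 was at 9.02, 12.7, 8.02 and 5.95 CPM at 22 °C and at 6.38, 4.52, 6.64 and 5.35 CPM at 6 °C. Replicate 4 at 22 °C lay among the cold libraries and the other 3 above them. The knockout difference was -0.64 ± 0.21 (edgeR, adjusted p = 0.0337), and -0.80 (adjusted p = 0.00875) without that replicate. The knockout call was lost without replicate 1 or 2 at 22 °C (adjusted p = 0.0886 and 0.175) and without replicate 2 or 4 at 6 °C (0.117 and 0.0754). It was also lost with only the groups compared (0.0933), with the majority sex only (0.0691) and with limma on RPKM (0.0526 and 0.0541). In bulk tissue, fewer cells of a type and less RNA per cell cannot be told apart, here or in the results that follow.

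Adrb3, the main beta receptor of rodent brown and white adipocytes, was at 95.9, 123, 113 and 98.5 CPM in wild types at 22 °C. At 6 °C the wild types spread from 71.2 to 155 CPM, with replicates 2 and 5 high (155 and 154.5 CPM) and replicate 4 low. The fitted difference was 0.11 ± 0.22 (95% interval -0.35 to 0.57; edgeR, adjusted p = 0.748). Knockouts had 90.0, 108, 74.0 and 57.6 CPM at 22 °C and 82.8, 66.4, 63.1 and 103 CPM at 6 °C. Their groups overlapped over most of their range, with a difference of -0.06 ± 0.23 (interval -0.55 to 0.42; adjusted p = 0.891), and of -0.21 without warm replicate 4. These intervals leave room, in either direction, for changes at least as large as the Adra1a change below. In the annotation, 839 exon bases of Adrb3 (24.9%) overlap Gm45470, an antisense gene, and 605 of Adcy6 (8.92%) overlap Gm29331, another one. Neither antisense gene was among the 21982 genes of the count table, so their reads could not be examined.

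Adra1a, the alpha-1 receptor with by far the most reads in this tissue, showed a small fall in wild types. It was at 69.6, 87.5, 97.0 and 92.4 CPM at 22 °C and at 72.6, 75.1, 57.5, 69.1 and 69.4 CPM at 6 °C. The groups overlapped because warm replicate 1 lay among the cold mice. The difference was -0.34 ± 0.11 (edgeR, adjusted p = 0.0373). This call was lost without any 1 of 8 libraries, among them replicate 2 at 22 °C (-0.30, adjusted p = 0.106), replicate 3 at 22 °C (-0.27, adjusted p = 0.145) and replicate 3 at 6 °C (-0.27, adjusted p = 0.104). It was also lost without the low-count filter (0.0518), with only the groups compared (0.0555) and with the majority sex only (0.0743). Knockouts had 88.8, 72.8, 86.7 and 69.4 CPM at 22 °C and 87.0, 76.6, 76.1 and 75.4 CPM at 6 °C. The cold knockouts lay within the range of the warm ones, with a difference of -0.01 ± 0.12 (interval -0.27 to 0.24; adjusted p = 0.966).

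**Figure D2:**
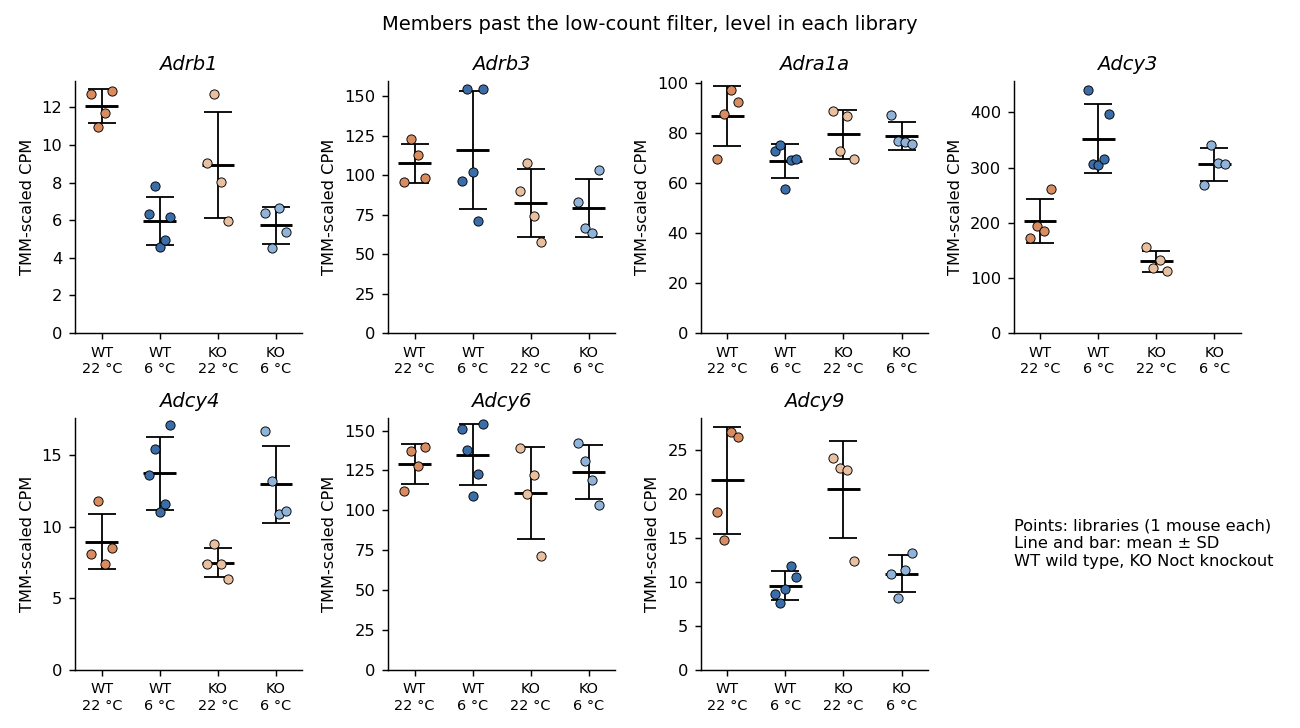
TMM-scaled CPM (vertical axes, from 0) of the 7 tested members in each library (points), with the mean and SD of each group. Cold libraries lie above warm ones for Adcy3 and below them for Adcy9 in wild types, while Adrb3 and Adcy6 overlap in both genotypes.

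Among the cyclases, Adcy3 and Adcy4 rose and Adcy9 fell in both genotypes. Adcy3, a membrane cyclase best known from olfactory cilia and also a major cyclase of fat, was at 172, 195, 186 and 260.5 CPM in wild types at 22 °C. At 6 °C it was at 440.5, 306.5, 304, 315 and 397.5 CPM, so every cold wild type lay above every warm one. The difference was 0.79 ± 0.15 (edgeR, adjusted p = 0.000954), or 1.73-fold. Knockouts went from 157, 117, 132 and 113 CPM at 22 °C to 268.5, 342, 308 and 306 CPM at 6 °C. Again the groups did not overlap, with a difference of 1.25 ± 0.15 (adjusted p = 6.1e-05), or 2.38-fold. The table gives 1 count per gene, so the 8 annotated Adcy3 transcripts were summed. A shorter, cold-induced Adcy3 transcript known from brown fat could not be told from the long form. In the annotation, 1380 exon bases of Adcy3 (22.1%) overlap Cenpo, a centromere protein gene on the opposite strand, and the strand setting of the counting was not given in the sources used here. Cenpo was at 0.907 to 3.72 CPM over all libraries, and it fell in the cold by 0.97 ± 0.19 in wild types (adjusted p = 0.00143) and by 0.67 ± 0.20 in knockouts (adjusted p = 0.0232).

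Adcy4, a calcium-insensitive cyclase, was at 8.11, 11.8, 7.41 and 8.51 CPM in wild types at 22 °C and at 13.6, 15.4, 11.02, 11.6 and 17.1 CPM at 6 °C. Only warm replicate 2 reached into the range of the cold mice. The difference was 0.62 ± 0.17 (edgeR, adjusted p = 0.0134), and 0.81 (adjusted p = 0.00457) without that replicate. Without replicate 3 at 22 °C it was 0.55 with an adjusted p of 0.0527, and limma on log2(RPKM + 1) gave 0.32 with an adjusted p of 0.123. Knockouts had 7.38, 8.79, 7.37 and 6.33 CPM at 22 °C and 16.7, 13.2, 10.9 and 11.1 CPM at 6 °C. These groups did not overlap, and the difference was 0.80 ± 0.18 (adjusted p = 0.00514). Endothelial markers were read beside Adcy4, and they moved in both directions. Their summed level over 8 genes ran from 337 to 442 CPM in warm and 418 to 528 CPM in cold wild types, and from 399 to 426 CPM in warm and 385 to 549 CPM in cold knockouts. In wild types 2 of the 8 rose (Pecam1 by 0.53 ± 0.12 and Esam by 0.63 ± 0.14) and 2 fell (Tek and Tie1), and in knockouts 2 rose and 1 fell. Their part in the Adcy4 result was not tested.

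Adcy9, a cyclase that responds poorly to forskolin, had the largest fall of the members. In wild types it went from 17.99, 14.8, 27.0 and 26.4 CPM at 22 °C to 8.61, 7.59, 9.24, 11.8 and 10.5 CPM at 6 °C, without overlap. The difference was -1.17 ± 0.19 (edgeR, adjusted p = 0.000373), or 0.444-fold. In knockouts it went from 24.1, 22.9, 22.7 and 12.3 CPM to 10.9, 8.20, 11.3 and 13.3 CPM, and only warm replicate 4 lay among the cold mice. The knockout difference was -0.90 ± 0.21 (adjusted p = 0.00499), and -1.06 (adjusted p = 0.00118) without that replicate. Adcy6, a calcium-inhibited cyclase, was at 112, 137, 128 and 139 CPM in warm and 151, 137.5, 109, 122.5 and 154 CPM in cold wild types. Its warm knockouts had 139, 110.0, 122 and 71.3 CPM and its cold knockouts 142, 131, 119 and 103 CPM. Both pairs of groups overlapped, with differences of 0.05 ± 0.16 (interval -0.28 to 0.38; adjusted p = 0.834) and 0.17 ± 0.17 (interval -0.18 to 0.52; adjusted p = 0.53). Without warm replicate 2 the wild-type difference was 0.15, and without warm replicate 4 the knockout difference was 0.0095.

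**Figure D3:**
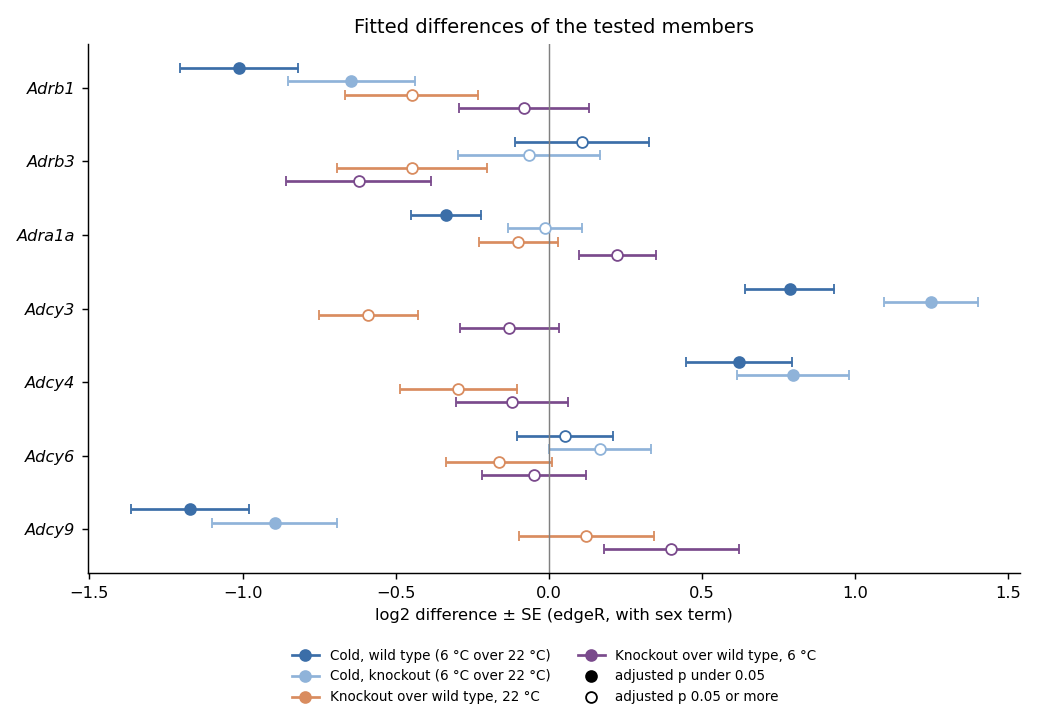
Fitted log2 differences with their SE (horizontal axis) of the 7 tested members in the 2 cold comparisons and the 2 genotype comparisons, with filled points for an adjusted p under 0.05. Filled points appear only in the cold comparisons, on the right for Adcy3 and Adcy4 and on the left for Adrb1, Adra1a (wild types only) and Adcy9.

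In wild types, 5 of 7 tested members were called in the cold comparison, 2 higher and 3 lower. Of all 12486 tested genes 27.6% were called, 14.3% higher and 13.3% lower. The 3 members whose groups did not overlap (Adrb1, Adcy3 and Adcy9) stood beside 25.8% of all genes. In knockouts 4 of 7 were called, 2 higher and 2 lower, against 21.6% of all genes (11.6% higher and 10% lower). Adcy3 and Adcy4 were the 2 members with higher, non-overlapping knockout groups, as were 10.8% of all genes. The members' median differences of 0.05 in wild types and -0.01 in knockouts lay close to the medians of all genes, -0.03 and -0.02. Without replicate 3 of the wild types at 22 °C the wild-type count was 3 of 7. Without replicate 2 of that group it was 4 of 7, with Adrb1 at -1.07, Adcy3 at 0.81 and Adcy9 at -1.26. Without replicate 4 of the knockouts at 22 °C the knockout count was again 4 of 7, with Adcy3 at 1.20 and Adcy4 at 0.72.

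The upstream sequences of 3 of these genes are shown because Adrb1 and Adcy9 fell and Adcy4 rose in both genotypes. RefSeq windows (GRCm38.p6) matched 6 of the 9 members in 8 windows, each read here as the 250 bases before an annotated transcription start. For Adcy3, whose gene lies at chr12:4133103-4213525 on the plus strand, both windows lie inside the annotated gene and are not printed. Capitals mark TGACG, the half-site of the cyclic AMP response element, searched on both strands (CGTCA on the other).
Adrb1: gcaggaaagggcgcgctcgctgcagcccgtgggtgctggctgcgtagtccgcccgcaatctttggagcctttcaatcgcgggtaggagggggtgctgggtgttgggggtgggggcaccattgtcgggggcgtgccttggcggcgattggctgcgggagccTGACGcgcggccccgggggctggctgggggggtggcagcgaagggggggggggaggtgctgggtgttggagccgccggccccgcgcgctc
Adcy9: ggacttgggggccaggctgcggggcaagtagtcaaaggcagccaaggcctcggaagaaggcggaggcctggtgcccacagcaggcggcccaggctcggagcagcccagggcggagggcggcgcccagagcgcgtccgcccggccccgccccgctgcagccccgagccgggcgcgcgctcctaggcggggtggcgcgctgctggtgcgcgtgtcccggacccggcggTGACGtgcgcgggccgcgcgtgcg
Adcy4: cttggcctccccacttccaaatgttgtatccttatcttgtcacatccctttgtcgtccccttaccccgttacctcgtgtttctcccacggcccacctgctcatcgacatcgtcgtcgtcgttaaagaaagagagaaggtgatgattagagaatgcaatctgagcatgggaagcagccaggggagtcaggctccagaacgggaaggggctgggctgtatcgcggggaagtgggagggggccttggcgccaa
The Adrb1 window is chr19:56721867-56722116 on the plus strand and lies upstream of the annotated gene (chr19:56722199-56733113). The Adcy9 window is chr16:4420499-4420748 on the minus strand and ends where the annotated gene begins (chr16:4287529-4420498). The Adcy4 window is chr14:55784073-55784322 on the minus strand, and its last bases lie inside the annotated gene (chr14:55769057-55784095). The half-site stands 90 bases before the start in Adrb1 and 24 bases before it in Adcy9, and it also occurs 69 bases before the start of Adra2a. It occurs in 3 of the 8 member windows and in 17.8% of the 32851 windows of all genes. The full element TGACGTCA, present in 1.55% of all windows, was in none of the members', nor was AAGGTCA (4.08%), a nuclear receptor half-site. CACGTG (6.02%), an E-box, was in the Adra2a window alone among the members. These are matches of letters within the windows, not measured binding.

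The shares of Adcy3, Adcy6 and Adcy9 in the cyclase family also differed between the temperatures in both genotypes. Receptor shares overlapped in part. Shares of summed RPKM compare genes within a library and carry no test. Adcy3 made up 51.4% ± 3.17 (SD, n = 4) of all cyclase RPKM in wild types at 22 °C and 65.1% ± 2.70 (n = 5) at 6 °C, and 44.1% ± 3.93 (n = 4) and 63.1% ± 4.35 (n = 4) in knockouts. The share of Adcy6 went from 34.2% ± 2.34 to 25.9% ± 1.70 in wild types and from 38.3% ± 3.96 to 26.6% ± 3.43 in knockouts, although its own level did not pass the test. That of Adcy9 went from 6.59% ± 1.69 to 2.16% ± 0.502 and from 8.22% ± 1.29 to 2.73% ± 0.625. Of the RPKM summed over 8 adrenoceptors, Adrb3 held 65.4% ± 2.66 and 74.4% ± 5.92 in warm and cold wild types and 62.3% ± 3.65 and 64.9% ± 4.96 in knockouts. Adrb1 held 10.1% ± 1.62 and 5.38% ± 0.882 in wild types and 9.10% ± 1.10 and 6.55% ± 1.52 in knockouts. Warm and cold libraries overlapped in the share of Adrb3 in both genotypes, and in that of Adrb1 in knockouts.

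**Figure D4:**
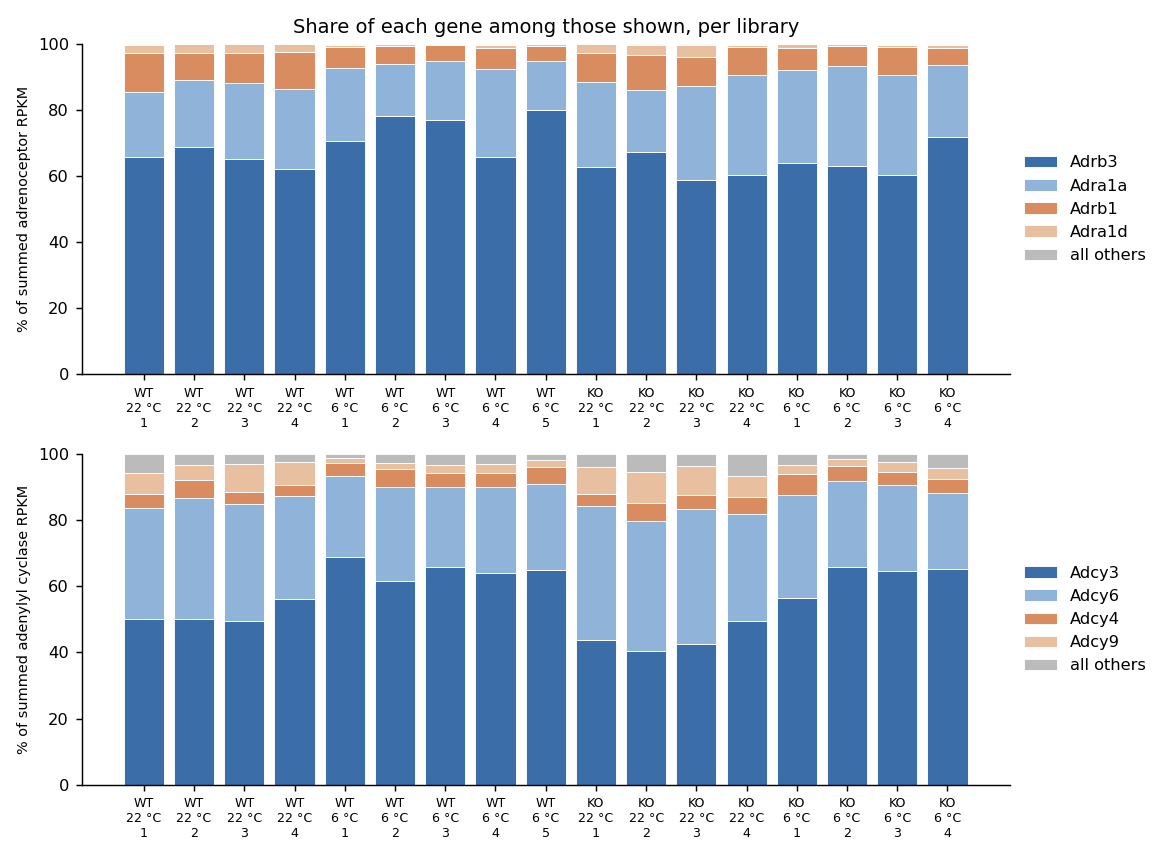
Stacked bars give the percentage of summed RPKM that each gene takes in the adrenoceptor family (top, 8 genes) and the adenylyl cyclase family (bottom, 10 genes) in each library. Adrb3 is the largest receptor block in every library, and the Adcy3 block is 49.5 to 56.2% in warm and 61.5 to 68.9% in cold wild types.

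Genotype was compared at each temperature, and no member passed the test. At 22 °C, 6 of 7 tested members were lower in knockouts, with adjusted p = 0.998 for each of the 7 (edgeR). Their median difference was -0.29, against -0.0019 for all tested genes. Replicate 4 of the knockouts was the lowest of its group for all 7, so the members do not count as independent. Only 0.016% of all genes were called in that comparison. Adcy3 had the largest difference, -0.59 ± 0.16 (unadjusted p = 0.00195). Its warm knockouts (113 to 157 CPM) lay wholly below its warm wild types (172 to 260.5 CPM), as did 1.93% of all genes. It was the only member with an unadjusted p under 0.05, against 3.89% of all genes. Adrb1 and Adrb3 both differed by -0.45 (SE 0.22 and 0.24), and replicate 4 of the knockouts was lowest for both. Without it these values were -0.32 and -0.32, and that of Adcy3 was -0.55. Adcy6 differed by -0.16, and by -0.028 without that library.

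At 6 °C no member was called either (edgeR, adjusted p = 0.999 for each), against 0.04% of all genes. There 5 of 7 were lower in knockouts. Adrb3 had the lowest unadjusted p (0.0175), at -0.62 ± 0.24, but the groups overlapped. It was the 1 member of 7 with an unadjusted p under 0.05, against 3.15% of all genes. Adra1a was at 75.4 to 87.0 CPM in cold knockouts and at 57.5 to 75.1 CPM in cold wild types, a separation in that direction shared by 0.457% of all genes. Its fitted difference was 0.22 ± 0.12 (unadjusted p = 0.0885). The difference between the 2 cold responses was tested directly. It gave 0.46 ± 0.21 for Adcy3 (unadjusted p = 0.0412, adjusted p = 1) and 0.32 ± 0.17 for Adra1a (unadjusted p = 0.0684, adjusted p = 1). No member was called there, and 0.00801% of all genes were. At an unadjusted p under 0.05 stood 1 of 7 members, Adcy3, and 2.48% of all genes. The Adra1a fall is therefore not shown to differ between genotypes. DESeq2 and limma likewise called 0 members in these 3 comparisons. Sex and genotype are partly confounded, and the fit carries a sex term.

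Of 3 other adrenoceptors 1 was tested, and of 6 other cyclases 4 were. Adra1d, the third alpha-1 receptor, fell by 2.12 ± 0.42 in wild types (edgeR, adjusted p = 0.00156) and by 1.66 ± 0.45 in knockouts (adjusted p = 0.0136). It went from 2.27 ± 0.232 to 0.517 ± 0.169 CPM in wild types and from 1.99 ± 1.11 to 0.625 ± 0.274 CPM in knockouts, where warm replicate 4 was at 0.375 CPM. None of the 4 other tested cyclases was called in either genotype. Adcy5 came closest, with -1.03 ± 0.38 in wild types (adjusted p = 0.0514) and 0.58 ± 0.41 in knockouts, and its 2 responses differed by 1.62 ± 0.56 (unadjusted p = 0.00996, adjusted p = 1). Replicate 4 of the cold knockouts had 6.93 CPM of Adcy5 against 1.55 to 2.37 CPM in the other 3. Without it the Adcy5 difference was -0.06 in knockouts and -1.03 in wild types (adjusted p = 0.925 and 0.0132), and the 2 responses differed by 0.97 (adjusted p = 1). The wild-type Adcy5 difference passed the threshold in 11 of 30 alternative settings.

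Between receptor and cyclase, the G protein alpha subunits showed 1 rise and 1 fall among 8 tested genes in wild types and no call in knockouts. Of all genes 14.3% rose and 13.3% fell in wild types and 11.6% and 10% in knockouts, and the lists that follow stand beside the same shares. Gnai3, an inhibitory subunit, rose by 0.36 ± 0.13 (edgeR, adjusted p = 0.0481) and Gnao1, of the same class, fell by 0.45 ± 0.13 (adjusted p = 0.0151). The Gnai3 call was lost in 20 of 30 alternative settings. Gnas, the stimulatory subunit, averaged 1535 and 1609 CPM in warm and cold wild types and 1808 and 1690 CPM in knockouts, with no call. Of 14 tested receptor kinases, arrestins and RGS proteins, only Arrb1 was called. Arrb1 encodes beta-arrestin 1, which uncouples and internalizes beta receptors, and it fell by 0.98 ± 0.21 in wild types (adjusted p = 0.00269). It was not called in knockouts (-0.55 ± 0.22, adjusted p = 0.0919), and no gene of these lists was called in the difference between the cold responses.

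Downstream of the cyclases, 4 of 13 tested genes of protein kinase A, its anchors and Epac rose in wild types and 1 fell, and 5 rose and none fell in knockouts, where 14.3% and 11.6% of all genes rose. Akap12, a scaffold that holds protein kinase A near beta receptors, went from 25.2 ± 10.2 to 91.0 ± 19.7 CPM in wild types and from 23.3 ± 1.497 to 84.2 ± 19.2 CPM in knockouts. Its differences were 1.90 ± 0.18 (edgeR, adjusted p = 6.92e-06) and 1.86 ± 0.18 (adjusted p = 1.7e-05). Prkar1a, a regulatory subunit, rose by 0.45 ± 0.11 and 0.52 ± 0.11, and Rapgef3 (Epac1), a cyclic AMP sensor, by 0.57 ± 0.17 and 0.92 ± 0.18. Akap1, a mitochondrial anchor, fell in wild types by 0.41 ± 0.14, a call lost in 10 of 30 alternative settings. Of 10 target genes known to respond to cyclic AMP in the cold, 6 rose in wild types and 7 in knockouts, and none fell. Ppargc1a rose by 2.86 ± 0.35 and 3.37 ± 0.35 (3.40 in wild types without warm replicate 2) and Dio2, the thyroid hormone deiodinase, by 2.17 ± 0.22 and 2.92 ± 0.24. These targets are textbook cold genes of brown fat.

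In the Gq branch used by Adra1a, 1 of 11 tested genes rose and 2 fell in wild types, and 2 fell in knockouts, no more than the 27.6% and 21.6% of all genes that were called. Plcb3, a phospholipase C, fell in both genotypes (-0.58 ± 0.15 and -0.46 ± 0.16; edgeR, adjusted p = 0.00775 and 0.0427), and its knockout call was lost in 19 of 30 alternative settings. Other receptors that share the cyclase also moved. Of 10 Gi-coupled receptors of adipocytes, 3 fell and 2 rose in wild types, and 2 fell and 1 rose in knockouts. Hcar1, the lactate receptor, went from 13.4 ± 2.26 to 2.43 ± 0.810 CPM in wild types (-2.43 ± 0.44, adjusted p = 0.000794). Hcar2, the hydroxybutyrate and niacin receptor, fell by 1.80 ± 0.41 in wild types and by 1.71 ± 0.46 in knockouts, and Adora1, the adenosine A1 receptor, by 1.12 ± 0.25 and 1.01 ± 0.27. Ffar4, a fatty acid receptor, rose in both (0.83 ± 0.20 and 0.84 ± 0.21). Npy1r rose by 1.175 in wild types (edgeR, adjusted p = 0.00933). Of 11 tested Gs-coupled receptors, 3 fell and 1 rose in wild types, where 13.3% and 14.3% of all genes did. Gipr, the incretin receptor, fell by 1.74 ± 0.43 from 0.888 ± 0.190 CPM, and Gpr3, a constitutively active receptor, rose by 1.90 ± 0.53 from 0.156 ± 0.108 CPM. In knockouts 1 of the 11 fell, against 10% of all genes. It was Calcrl (-1.01 ± 0.23), the adrenomedullin and CGRP receptor of vessels.

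**Figure D5:**
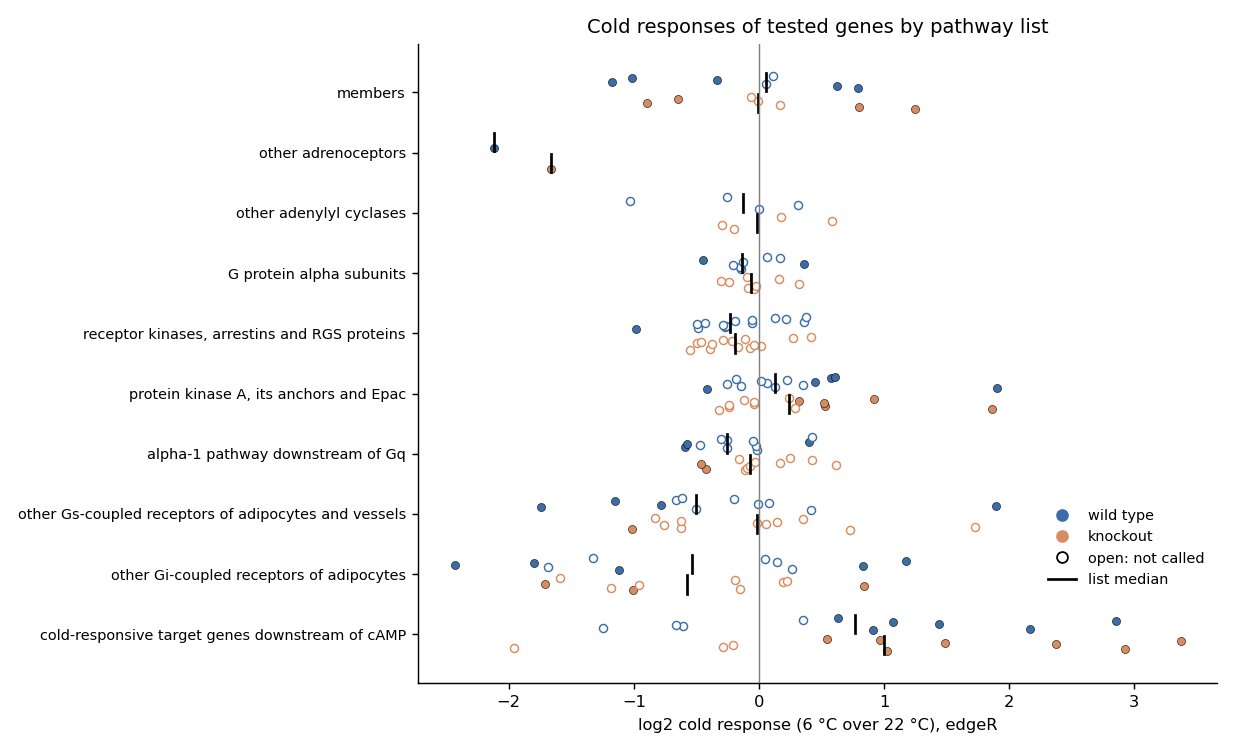
Fitted log2 cold response (horizontal axis) of each tested gene in the members and 9 pathway lists, with wild types in blue and knockouts in orange, filled where called, and black bars for list medians. The cyclic AMP targets lie mostly to the right (medians 0.77 and 1.00), and the Gi-coupled receptors mostly to the left (medians -0.53 and -0.57).

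Markers of other cells were read beside these results. The 9 skeletal muscle genes summed to between 0.657 and 1045 CPM across single libraries, with a wide spread inside every group and no call. Vascular smooth muscle and pericyte markers had 3 falls of 8 in wild types and 2 in knockouts, against 13.3% and 10% of all genes. Their sums ran from 401 to 511 CPM in warm and 441 to 528 CPM in cold wild types. In knockouts they ran from 496.5 to 699.8 CPM in warm and 407 to 589.8 CPM in cold mice. Rgs5 made up most of these sums, averaging 340 and 391 CPM in warm and cold wild types. Cspg4, Pdgfrb and Notch3 averaged 45.5, 23.35 and 13.4 CPM in warm wild types and 18.5, 16.6 and 8.65 CPM in cold ones. The rest of that list averaged higher in cold than in warm wild types. In the nerve and Schwann cell list Npy was at 0 in every library. That list's sum ran from 64.7 to 97.8 CPM in warm and 118 to 143 CPM in cold wild types and from 70.8 to 108.5 CPM in warm and 96.2 to 153 CPM in cold knockouts, and Pmp22 rose in both genotypes (1.14 ± 0.18 and 1.31 ± 0.19, edgeR). Macrophage markers had 1 rise of 7 in each genotype (Cd163), fibroblast markers 0 of 6, and white adipocyte markers 1 fall of 5 tested (Lep), with Hoxc10 at 0 in every library. Their part in the members' changes was not tested.

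Across the 17 libraries, members called in the same direction in the cold correlated in level. The group differences behind those calls build this in, so it is not a further result. On log2 CPM, Pearson's r was 0.77 between Adrb1 and Adcy9 and 0.81 between Adcy3 and Adcy4. After each group's mean was taken out, it was 0.33 and 0.10. Adra1a and Adcy6, by contrast, had r = 0.39 with the group means and 0.74 without them. Among 7839 genes of at least 5 CPM on average, the closest in pattern was Pacs1 for Adcy9 (r = 0.97, and 0.89 after group means), Mapkapk2 for Adcy3 (0.96 and 0.80), Ppp1r18 for Adcy4 (0.94 and 0.80) and Bcorl1 for Adrb1 (0.94 and 0.77). For the other 3 tested members the closest gene was Sh3bp5l for Adcy6 (0.88 and 0.87), Arl2bp for Adra1a (0.82 and 0.71) and Cnot3 for Adrb3 (0.81 and 0.68). All these correlations run over the same 17 libraries, which differ in depth, mitochondrial share and group. Each value for a closest gene is the highest of many.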

How the data were processed

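RNA from brown fat was sequenced in 17 libraries, 1 per mouse. The authors deposited raw read counts per gene, made with STAR and HTSeq on mm10 or GRCm38.p6, per the submitters' processing notes, which give no versions, annotation or strand setting. The authors also deposited RPKM values, which equal those counts scaled to gene length and column total. Every gene row was used and no per-sample column was left unassigned. The members and all gene lists were chosen with earlier results of these data known.

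Counts were fitted in R 4.3.3 with edgeR 4.0.16 (filterByExpr over the 4 groups, TMM, quasi-likelihood F test, group and labelled sex as terms, 12 residual degrees of freedom). The fit ran over all 17 libraries and 12486 genes, with Benjamini-Hochberg adjustment over all of them and a threshold of 0.05. The script was tested on simulated data. Alternatives used DESeq2 1.42.0, limma 3.58.1 on log2(RPKM + 1) and log2(RPKM + 0.1), other filters, other covariates and each library left out. Positions and overlaps come from GENCODE vM21 (GRCm38).

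All 9 members were named. From each pathway list and comparison, the rule took up to 4 called genes with the largest changes. Where none was called, it took up to 2 with the highest CPM. Not every gene that the rule took is described. Genes of like pattern were the 3 with the highest correlation per member, of which the closest is given. Genes with predicted names were left out of that search. One gene of the pathway lists is not reported here, and family shares leave it out. Depth limited the test to 7 members. Without molecular identifiers, count intervals cover counting error only.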

Additional observations from a re-analysis of the deposited data

Results flagged for a closer look

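In 2 of 28 groups of member values, 1 library lay far from the rest of its group by Dixon's test, and chance alone flags about 1 group in 20. Adra1a was at 87.0 CPM in replicate 1 of the knockouts at 6 °C, the only female of that group, while the other 3 libraries were at 75.4 to 76.6 CPM. Adcy9 was at 12.3 CPM in replicate 4 of the knockouts at 22 °C, while the other 3 were at 22.7 to 24.1 CPM. That library also had the highest mitochondrial share, 57.3%. Replicate 3 of the knockouts at 6 °C had a share of 57.0% and 11.3 CPM of Adcy9, within its group's 8.20 to 13.3 CPM. A link with this share was not tested.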

How the results depend on the processing

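Over 30 alternatives each, Adcy3 and Adcy9 in both genotypes, Adrb1 in wild types and Adcy4 in knockouts kept their direction and stayed past the threshold. The wild-type Adra1a call was lost in 13 of 30 (adjusted p up to 0.145), the knockout Adrb1 call in 10 (up to 0.175) and the wild-type Adcy4 call in 3 (up to 0.129). Of the other calls named, those of Adra1d and Rapgef3 were lost in 4 (knockouts) and 7 (wild types), and those of Gpr3 and Gnao1 in wild types in 3 of 29 and 2 of 30. In knockouts Hcar2 was lost in 2, and Adora1, Ffar4 and Ucp1 in 1 each. The number of members called ranged from 3 to 5 in wild types and from 3 to 4 in knockouts when 1 library was left out. Outside the called results, signs changed as follows, and the cause was not tested.

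Replicate numbers are not stated to pair animals. Deviations of same-numbered libraries correlated at -0.418 to 0.439 over 24 pairs (median 0.035), with 11 over 0.1. For different numbers the range was -0.477 to 0.607 over 84 pairs (median -0.038), with 27 over 0.1. Whether the numbers mark pairs was not settled by these values. With the replicate number as a block, without and with sex, 4 members were called in wild types and 3 in knockouts, and Adrb1 in knockouts had adjusted p = 0.0561 and 0.0695. The block gave Adrb3 -0.050 and -0.052 and Adcy6 -0.0087 and -0.00025 in wild types, and it gave 0.037 and 0.036 for the difference between the Adrb3 responses. For genotype at 22 °C, Adcy9 was -0.016 with the block and no sex term. For genotype at 6 °C it gave Adcy4 0.0083 and 0.013, and Adcy6 0.043 with sex. Genes called for genotype at 22 °C numbered 1 and 0 with the block.

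With limma on log2(RPKM + 1) and log2(RPKM + 0.1), wild-type cold differences were -0.14 and -0.15 for Adrb3 and -0.15 and -0.16 for Adcy6. The difference between the Adrb3 responses was 0.021 and 0.023, and Adcy9 for genotype at 22 °C was -0.037 and -0.040. RPKM is scaled to total counts: that scaling shifted the median of all genes by -0.175 in the wild-type cold comparison and -0.16 for genotype at 22 °C. The share of calls that were higher was 22% against 51.8% in wild types and 41.3% against 53.6% in knockouts. DESeq2 size factors and the DESeq2 test gave 0.0020 and 0.0019 for Adra1a in knockouts. Without a sex term, Adcy9 for genotype at 22 °C was -0.067. With the majority sex only it was -0.30, and the difference between the Adcy4 responses was -0.092.

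With 1 library left out, the cold difference ranged from -0.028 to 0.24 for Adrb3 and from -0.019 to 0.15 for Adcy6 in wild types, and from -0.21 to 0.090 for Adrb3 and from -0.068 to 0.069 for Adra1a and from -0.060 to 0.89 for Adcy5 in knockouts. The genotype difference ranged from -0.042 to 0.26 for Adcy9 at 22 °C, and at 6 °C from -0.21 to 0.16 for Adrb1, from -0.19 to 0.046 for Adcy3 and from -0.11 to 0.035 for Adcy6. The difference between the responses ranged from -0.052 to 0.29 for Adcy4 and from -0.048 to 0.24 for Adcy6.

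All genes called numbered 1589 (only the groups compared) and 1647 (majority sex only) for cold in knockouts, against 2697. For genotype at 22 °C, against 2, they numbered 10 (DESeq2), 4 (no sex term), 0 (only the groups compared), 7 (majority sex only) and 4 and 4 (limma). At 6 °C, against 5, they numbered 12 (DESeq2), 3 (sex and age), 3 (only the groups compared), 14 (majority sex only) and 3 (limma, RPKM + 1). With 1 library left out these counts ranged from 1 to 3 and from 3 to 5.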
